A study of Mus musculus with 6 samples.

Results

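The genes described here are Trp53, which encodes the transcription factor p53, and 30 genes that p53 is known to regulate, 31 of the 20887 genes named on the array. A member is represented by all probes that are not controls and whose RefSeq accession maps to its symbol, which gave 37 probes. Of the 31 members, 29 were tested, with 32 probes. Their mRNA was measured in cells sorted as ureteric bud derivatives, the precursors and cells of the kidney's collecting ducts, on 6 two-colour oligonucleotide arrays. All mice were C57BL/6 at postnatal day 1, carried the Hoxb7cre+ driver and the R26RtdTomato reporter, and had salt-stressed kidneys. MUT pools 1 to 3 came from Bdkrb2f/f mice, whose gene for the bradykinin B2 receptor Cre removes, and WT pools 1 to 3 came from Bdkrb2+/+ mice. The deletion is therefore limited to cells in which the Hoxb7 driver was active, and the sort was for GFP+/Tom+ cells. How many mice went into each pool is unknown here.

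Cy5-labelled RNA of each pool was hybridised with Cy3-labelled RNA of WT pool 1, so every value is a log2 ratio to WT pool 1. The array of WT pool 1 set that RNA against itself, so a ratio away from 0 there is not a difference between RNAs. Between 27022 and 31314 of 55681 probes gave a Cy5 signal well above background per array, and 29003 probes of 14586 named genes and of unnamed transcripts were tested. Over these probes the SD of the log2 ratios was 0.65, 0.55 and 0.50 for MUT pools 1 to 3, against 0.15, 0.25 and 0.21 for WT pools 1 to 3. The probe for Bdkrb2 was not well above background on any of the 6 arrays, so it does not check the labels. The markers of the sorted cells differed widely between the groups: 8 of 8 ureteric lineage markers and 8 of 8 principal cell markers fell in MUT pools, with median log2 differences of -1.71 and -1.78. All 16 were well above background on all 6 arrays. Of the stroma markers 8 of 8 rose (median 2.17), as did 7 of 8 nephron progenitor markers (median 2.13). Among 8 markers each, 8 of intercalated cells (median -2.47), 8 of loop and distal tubule (-2.65), 7 of endothelium (-1.03) and 4 of proximal tubule (-0.73) fell, as did 4 of 4 tested erythroid markers (-2.27). Of 8 leukocyte markers 6 rose and 1 fell (median 1.11). The proximal count was 2 without MUT pool 2, 2, 6 and 1 without WT pools 1, 2 and 3, and 0 in the scalings to spike-in controls, where its median was positive. In those scalings 1 endothelial, 4 principal and 4 ureteric lineage markers were called lower. When the slide row was blocked, 4 stroma and 0 leukocyte markers were called higher by limma, and 4 endothelial and 2 proximal markers lower. Per pool, the stroma markers' median log2 ratio was between 1.43 and 1.61 in MUT pools and between -1.16 and 0.12 in WT pools. In such bulk samples fewer cells of a type and less RNA per cell cannot be told apart, and the part of these marker shifts in the p53 gene results was not tested.

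p53 is kept scarce in unstressed cells by the ubiquitin ligase Mdm2, itself a p53 target, and accumulates after DNA damage and other stress. It then activates genes for cell cycle arrest, cell death, DNA repair and metabolic adjustment, and it lowers many mitotic genes indirectly, through p21 and the DREAM repressor complex. In the developing kidney p53 takes part in the balance of proliferation, survival and differentiation. The p53 protein binds DNA as a tetramer, at pairs of 10-base half-sites.

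Promoter sequences from RefSeq (GRCm38.p6, 250 bases before to 50 bases after a start site) were found for 24 of the 31 members, in 33 windows. Trp53inp1, Pmaip1, Perp, Zmat3, Tnfrsf10b, Rrm2b and Xpc had no entry. The p53 half-site consensus, read on both strands with no mismatch, was present in 36.4% of the members' windows, against 8.36% of all 32841 promoters. The members were chosen as genes that p53 is known to regulate, so this excess is not an independent finding. Windows of a gene can also overlap, and those of Aen hold the same half-site. The exact half-site lay in windows of 11 members, of which 3 rose, 1 fell and 7 were not called in MUT pools. Of the 12 tested members whose windows held no exact half-site, 3 rose, 4 fell and 5 were not called. Beside these counts, 14.0% of all tested genes were called higher and 18.8% lower. A link between half-sites and direction was not tested. These matches describe letters in a window and are not binding data. The other window of Cdkn1a, of Gtse1 and of Polk held no exact half-site. The pairs of half-sites with 1 mismatch in the pair are shown with the half-sites in capitals. They are from Cdkn1a at chr17:29090918-29090957 on the plus strand, Ccng1 at chr11:40755452-40755491 on the minus strand, and Bax at chr7:45467080-45467120 on the minus strand. The others are from Gtse1 at chr15:85859940-85859969 on the plus strand, and Polk at chr13:96519388-96519428 on the minus strand.
Cdkn1a: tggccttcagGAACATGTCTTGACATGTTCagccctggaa
Ccng1: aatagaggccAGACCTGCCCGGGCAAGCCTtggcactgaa
Bax: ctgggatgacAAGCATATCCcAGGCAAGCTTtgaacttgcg
Gtse1: accggGAGCAAGTTGGGGCTTGCCTctgac
Polk: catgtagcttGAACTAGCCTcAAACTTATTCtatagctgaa

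The CHR element, TTTGAA or TTCGAA on either strand, is a short sequence through which the DREAM complex is known to act on cell cycle genes. It was present in 27.3% of the members' windows, against 19.2% of all promoters. It lay in windows of 8 members, which were Ckap2, Psrc1, Gdf15, Ddit4, Bax, Aen, Fas and Ercc5. Of these, Ckap2 and Psrc1 rose, Gdf15 and Ddit4 fell, and the others were not called. The windows of Gtse1, the other mitotic member, held none. The element is shown in capitals for the mitotic members Ckap2, at chr8:22185905-22185930 on the minus strand, and Psrc1, at chr3:108383798-108383823 on the plus strand.
Ckap2: tttgttcgatTTTGAAatttctcgcc
Psrc1: gcctaagaaaTTCGAAcgaagctccg

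The question put to MUT and WT pools is whether these genes differ when ureteric cells lack the B2 receptor. The members moved in both directions. At an adjusted p under 0.05, 7 of 29 rose (Phlda3, Apaf1, Trp53, Sesn1, Psrc1, Ckap2 and Trp53inp1) and 8 fell (Perp, Gdf15, Pmaip1, Cdkn1a, Ddit4, Dcxr, Zmat3 and Sesn2). The other 14 were not called. The 15 called members are 51.7% of those tested, beside 32.8% of all tested genes, of which 14.0% were called higher and 18.8% lower (26.1% of all probes were called in either direction). The ranges of MUT and WT pools were separate for 19 members (65.5%), beside 52.5% of all genes. Only Phlda3, Perp and Gdf15 were called and changed at least 2-fold (10.3% of members, beside 8.60% of all genes). All 29 tested members were well above background on all 6 arrays, so none passed the filter through 1 group alone. The median log2 difference of the members was -0.18, beside -0.016 over all genes, and their median absolute difference was 0.403, beside 0.279. The direction of most falls and of many uncalled differences depends on how arrays are scaled, and the values under another scaling are given after the genes.

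**Figure D1:**
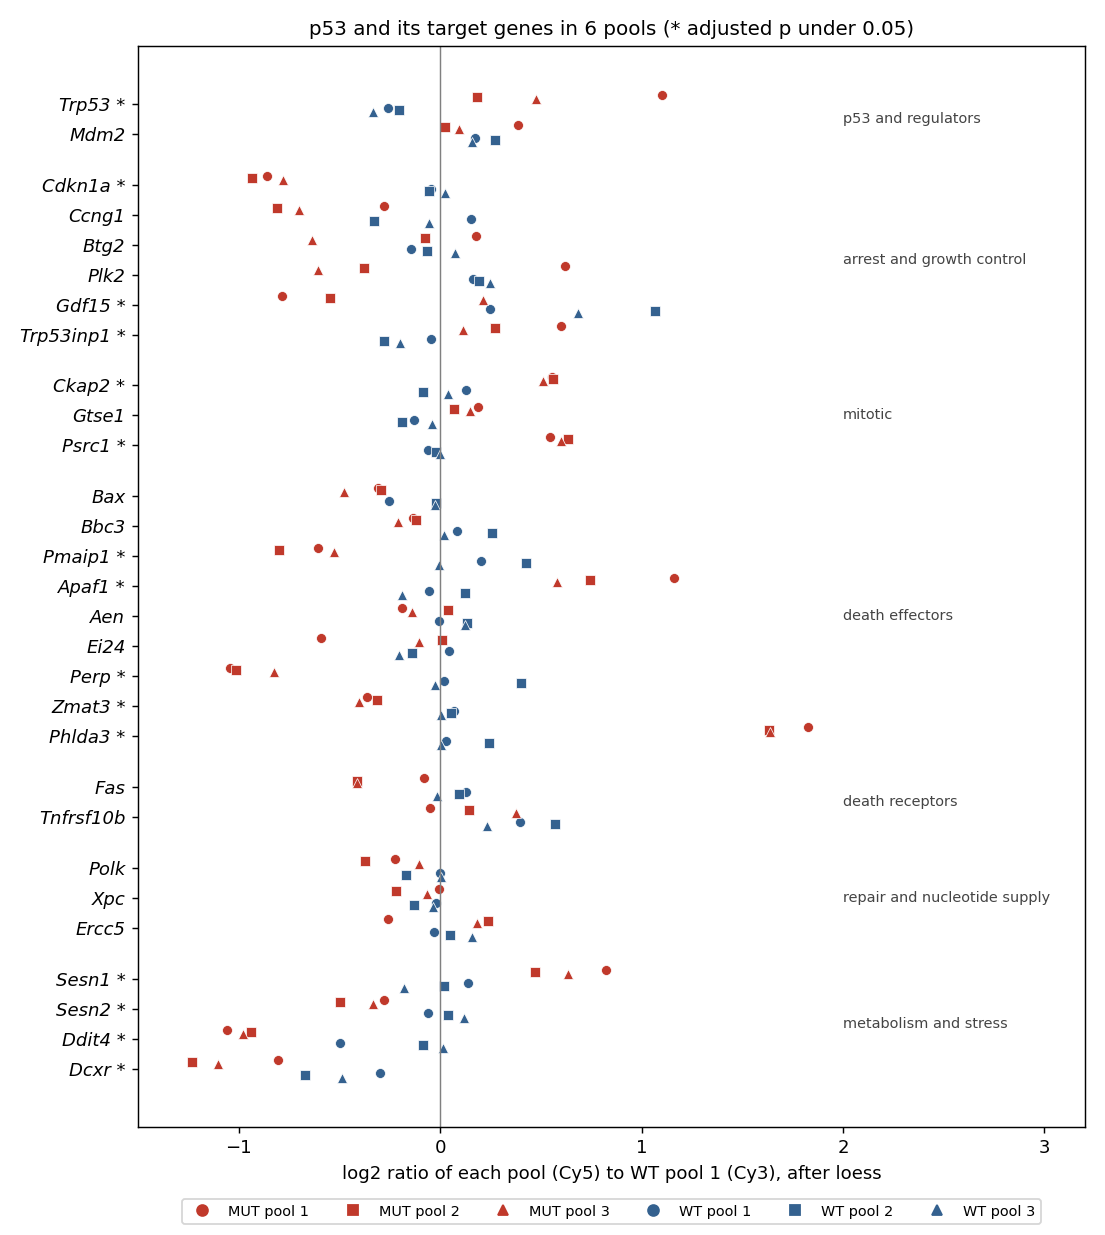
Log2 ratio of each pool to WT pool 1 (horizontal axis) for the 29 tested genes, in groups by role, with MUT pools 1 to 3 in red and WT pools 1 to 3 in blue; an asterisk marks an adjusted p under 0.05. The red points of Phlda3 lie between 1.63 and 1.83, to the right of every other value, and those of Cdkn1a, Perp and Pmaip1 lie to the left of their blue points.

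Trp53 itself rose while Mdm2 showed no resolved difference. The log2 ratios of Trp53 were 1.10, 0.18 and 0.48 in MUT pools 1 to 3, against -0.26, -0.20 and -0.33 in WT pools 1 to 3. All MUT pools were higher than all WT pools, but MUT pool 1 stood far above MUT pools 2 and 3. The difference was 0.85 ± 0.21 (SE, n = 3 pools per group, 1.8-fold, adjusted p = 0.0229). The Cy5 signal above local background was 1010, 483 and 503 in MUT pools, against 201, 158 and 158 in WT pools. Without WT pool 1, 2 or 3 the call of Trp53 was lost, with adjusted p of 0.07, 0.0607 and 0.0916. Mdm2, the ligase that marks p53 for destruction and whose gene p53 activates, had log2 ratios of 0.39, 0.02 and 0.09 in MUT pools, against 0.17, 0.27 and 0.16 in WT pools. These values overlap, with a difference of -0.03 ± 0.12 (SE, adjusted p = 0.87).

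Of the 6 members of arrest and growth control, 2 fell, 1 rose and 3 were not called. Cdkn1a, which encodes the cyclin-dependent kinase inhibitor p21 and is the main effector of p53-dependent arrest, fell. Its log2 ratios were -0.86, -0.94 and -0.78 in MUT pools, against -0.04, -0.06 and 0.02 in WT pools. The pools of each group lay close together and the groups were far apart. The difference was -0.83 ± 0.10 (SE, 1.78-fold lower, adjusted p = 0.000954). The fall is in the ratio of the channels: the Cy5 signal above background was 757, 651 and 522 in MUT pools, against 929, 681 and 800 in WT pools. On the same arrays the Cy3 signal of the WT pool 1 RNA was 587, 477 and 328 beside the MUT pools, against 330, 391 and 520 beside the WT pools. The second Cdkn1a probe was not above background on any array and was not tested.

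Gdf15, a secreted stress cytokine, also fell, with a wide spread. Its log2 ratios were -0.79, -0.55 and 0.21 in MUT pools, against 0.25, 1.07 and 0.69 in WT pools. The groups did not overlap, although MUT pool 3 lay just below WT pool 1. The difference was -1.04 ± 0.29 (SE, 2.06-fold lower, adjusted p = 0.0326). The call was lost without MUT pool 2 (adjusted p = 0.0946), WT pool 2 (0.106) or WT pool 3 (0.109).

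Trp53inp1, a nuclear protein that promotes p53 activity, was called higher at its brighter probe. That probe had log2 ratios of 0.60, 0.27 and 0.11 in MUT pools, against -0.05, -0.28 and -0.20 in WT pools, a difference of 0.50 ± 0.14 (SE, 1.42-fold, adjusted p = 0.0371). Its dimmer probe had the opposite sign, with -0.22, -0.24 and -0.07 in MUT pools, against 0.09, 0.14 and 0.14 in WT pools (difference -0.30 ± 0.10 SE, adjusted p = 0.058). The direction of this gene is therefore unsettled between its probes, and the call of the brighter one was lost without MUT pool 2 (adjusted p = 0.0748) and without WT pool 1 (0.0644), 2 (0.112) or 3 (0.126).

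Ccng1, Plk2 and Btg2 were not called. MUT pool 1 stood apart from the other MUT pools in Ccng1 and Plk2, and MUT pool 3 did in Btg2. Ccng1, an atypical cyclin that is among the most constant p53 targets, had log2 ratios of -0.28, -0.81 and -0.70 in MUT pools, against 0.15, -0.33 and -0.06 in WT pools (difference -0.52 ± 0.18 SE, adjusted p = 0.0652). Plk2, a polo-like kinase of the stress response, had 0.62, -0.38 and -0.60 in MUT pools, against 0.16, 0.19 and 0.25 in WT pools (difference -0.32 ± 0.28 SE, adjusted p = 0.44). Without MUT pool 1 both were called lower, Ccng1 with a difference of -0.68 (adjusted p = 0.00552) and Plk2 with -0.69 (adjusted p = 0.0013). Btg2, an antiproliferative regulator of mRNA decay, had 0.18, -0.07 and -0.64 in MUT pools, against -0.15, -0.07 and 0.07 in WT pools, and the WT values lay within the MUT range (difference -0.13 ± 0.20 SE, adjusted p = 0.668).

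Of the 3 mitotic members, Ckap2 and Psrc1 rose and Gtse1 was not called. Psrc1, a microtubule-binding protein of the spindle, had log2 ratios of 0.54, 0.64 and 0.60 in MUT pools, against -0.06, -0.02 and -0.003 in WT pools. The 6 pools formed a tight set for each group, with a difference of 0.62 ± 0.09 (SE, 1.54-fold, adjusted p = 0.00256). Ckap2, a spindle protein needed for chromosome segregation, had 0.55, 0.56 and 0.51 in MUT pools, against 0.13, -0.08 and 0.04 in WT pools (difference 0.51 ± 0.10 SE, 1.43-fold, adjusted p = 0.00802). Gtse1, a microtubule regulator that also restrains p53, had 0.19, 0.07 and 0.15 in MUT pools, against -0.13, -0.19 and -0.04 in WT pools. Its groups did not overlap, but the difference of 0.26 ± 0.10 (SE) did not pass (adjusted p = 0.0906).

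Of the 9 effectors of cell death, 2 rose, 3 fell and 4 were not called. Phlda3, a membrane-lipid-binding protein that restrains Akt signalling, had the largest difference of any member. Its log2 ratios were 1.83, 1.63 and 1.64 in MUT pools, against 0.03, 0.24 and 0.002 in WT pools. Every MUT pool was at least 1.39 log2 units above every WT pool. The difference was 1.61 ± 0.11 (SE, 3.05-fold, adjusted p = 0.000365), and the Cy5 signal above background was 13180, 9374 and 6716 in MUT pools, against 1966, 1725 and 1794 in WT pools. Phlda3 was called higher under all 22 alternative settings tried.

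Apaf1, the scaffold of the apoptosome that activates caspase-9, also rose. Its log2 ratios were 1.16, 0.75 and 0.58 in MUT pools, against -0.06, 0.13 and -0.19 in WT pools. The groups were well separated, with a difference of 0.87 ± 0.17 (SE, 1.83-fold, adjusted p = 0.00735).

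Perp, Pmaip1 and Zmat3 fell. Perp, a tetraspan membrane protein of desmosomes and of p53-dependent death, had log2 ratios of -1.04, -1.01 and -0.82 in MUT pools, against 0.02, 0.40 and -0.03 in WT pools (difference -1.09 ± 0.14 SE, 2.13-fold lower, adjusted p = 0.00149). Pmaip1, the BH3-only protein Noxa, had -0.61, -0.80 and -0.53 in MUT pools, against 0.20, 0.43 and -0.005 in WT pools (difference -0.85 ± 0.14 SE, 1.81-fold lower, adjusted p = 0.00385). Zmat3, a zinc finger RNA-binding protein, had -0.36, -0.31 and -0.41 in MUT pools, against 0.07, 0.05 and 0.004 in WT pools (difference -0.40 ± 0.09 SE, 1.32-fold lower, adjusted p = 0.0154). All MUT pools lay below all WT pools in each of these genes, and Zmat3 lost its call without WT pool 1 (adjusted p = 0.0613) or WT pool 3 (0.0568).

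The other BH3 and multidomain Bcl-2 relatives were not called. Bax, the pore-forming protein of the mitochondrial outer membrane, had log2 ratios of -0.31, -0.29 and -0.48 in MUT pools, against -0.26, -0.02 and -0.03 in WT pools (difference -0.26 ± 0.11 SE, adjusted p = 0.129). Bbc3, the BH3-only protein Puma, had -0.13, -0.12 and -0.21 in MUT pools, against 0.09, 0.26 and 0.02 in WT pools (difference -0.27 ± 0.10 SE, adjusted p = 0.09). In both genes all MUT pools lay below all WT pools, although WT pool 1 was close to the MUT pools in Bax. That WT pool 1 value comes from the array of this RNA against itself. Aen, an apoptosis-enhancing nuclease, had a difference of -0.18 ± 0.11 (SE, adjusted p = 0.251) at its brighter probe and -0.22 (adjusted p = 0.228) at the other. Ei24, an endoplasmic reticulum protein of autophagy, had -0.59, 0.01 and -0.11 in MUT pools, against 0.04, -0.14 and -0.20 in WT pools, and its groups overlap (difference -0.13 ± 0.17 SE, adjusted p = 0.604).

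Neither of the tested death receptors passed limma's test at the adjusted threshold, and 1 of 2 did at an unadjusted p under 0.05. Fas, the receptor of Fas ligand, had log2 ratios of -0.08, -0.41 and -0.41 in MUT pools, against 0.13, 0.09 and -0.02 in WT pools. The groups did not overlap, and the difference of -0.37 ± 0.12 (SE) had an adjusted p of 0.0607. Without MUT pool 1 it was -0.48 and called lower (adjusted p = 0.00576). Tnfrsf10b, the mouse TRAIL receptor, had -0.05, 0.14 and 0.38 in MUT pools, against 0.40, 0.57 and 0.23 in WT pools, which overlap (difference -0.24 ± 0.14 SE, adjusted p = 0.252). Eda2r, the receptor of ectodysplasin A2, had 2 probes, neither above background on any array, and was not tested.

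Of the 3 tested repair genes 0 were called by limma, and 0 had an unadjusted p under 0.05. Xpc, which recognises helix-distorting DNA lesions, had log2 ratios of -0.01, -0.22 and -0.07 in MUT pools, against -0.02, -0.13 and -0.04 in WT pools (difference -0.04 ± 0.10 SE, adjusted p = 0.827). Ercc5, the endonuclease that cuts 3′ of such lesions, had -0.26, 0.24 and 0.19 in MUT pools, against -0.03, 0.05 and 0.16 in WT pools (difference -0.005 ± 0.15 SE, adjusted p = 0.985). Polk, a translesion DNA polymerase, had -0.23, -0.37 and -0.10 in MUT pools, against -0.002, -0.17 and 0.003 in WT pools (difference -0.18 ± 0.11 SE, adjusted p = 0.283). In each of the 3 genes the groups overlap. Rrm2b, the p53-inducible ribonucleotide reductase subunit, was not tested: of its 2 probes 1 was above background on 2 MUT and 2 WT arrays, and the other on 1 MUT array and 0 WT arrays.

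All 4 members of metabolism and stress were called, 1 higher and 3 lower, and the sestrins moved in opposite directions. Sesn1, a sestrin that restrains mTORC1, had log2 ratios of 0.82, 0.47 and 0.63 in MUT pools, against 0.14, 0.02 and -0.18 in WT pools (difference 0.65 ± 0.13 SE, 1.57-fold, adjusted p = 0.0101). Sesn2, the leucine-sensing relative that ATF4 also activates, had -0.28, -0.50 and -0.34 in MUT pools, against -0.06, 0.04 and 0.12 in WT pools (difference -0.40 ± 0.11 SE, 1.32-fold lower, adjusted p = 0.0284). Neither gene's groups overlapped. The call of Sesn1 was lost without WT pool 3 (adjusted p = 0.0512). That of Sesn2 was lost without MUT pool 2 (0.0901) or 3 (0.0596) and without WT pool 1 (0.0554), 2 (0.0754) or 3 (0.121).

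Ddit4, an mTORC1 inhibitor also known as REDD1 that hypoxia and glucocorticoids raise too, had log2 ratios of -1.06, -0.94 and -0.98 in MUT pools, against -0.50, -0.09 and 0.02 in WT pools. The MUT pools were alike, and WT pool 1 lay nearest to them. The -0.50 of WT pool 1 comes from the array of that RNA against itself, so it is not a contrast of 2 RNAs. The difference was -0.80 ± 0.15 (SE, 1.74-fold lower, adjusted p = 0.00598). Dcxr, a reductase of xylulose and dicarbonyl compounds, had -0.81, -1.23 and -1.11 in MUT pools, against -0.30, -0.67 and -0.49 in WT pools, and all MUT pools lay below all WT pools. Its difference was -0.56 ± 0.15 (SE, 1.48-fold lower, adjusted p = 0.0272), and the call was lost without MUT pool 2 (0.0856) or 3 (0.0725) and without WT pool 1 (0.0983) or 3 (0.0958).

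The members varied more among MUT pools than among WT pools. The SD within the group was higher in MUT than in WT pools for 21 of 29 members, a count that was not made over all genes. MUT pool 1 was the MUT pool farthest from the middle one for 14 members (48.3%), beside 53.6% of all genes. Over the members, the SD of the difference between pools was 0.23 for MUT pools 2 and 3, the closest MUT pair, and 0.35 and 0.43 for MUT pool 1 against MUT pools 2 and 3. It was between 0.20 and 0.25 for pairs of WT pools, and between 0.57 and 0.79 for a MUT pool set against a WT pool. MUT pool 1 stood apart over all tested probes too. There the SD was 0.207 for MUT pools 2 and 3, and 0.446 and 0.445 for MUT pool 1 against them. Pairs of WT pools had 0.217 to 0.245, and a MUT pool against a WT pool had 0.445 to 0.727.

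Other genes of the pathway gave a mixed picture as well. Of 35 further p53 targets that were tested, 6 rose, 6 fell and 23 were not called (34.3% called, beside 32.8% of all genes), and their median difference was -0.018. Ephx1, the microsomal epoxide hydrolase, fell (-0.92, adjusted p = 0.00171), as did Crip2, a LIM-domain protein (-1.05, adjusted p = 0.00236), and Ak1, an adenylate kinase (-1.08, adjusted p = 0.00264). Igfbp3, which binds insulin-like growth factors, rose (0.82, adjusted p = 0.00194). Without MUT pool 1, 6 of these further targets were called higher and 12 lower, and without WT pool 3, 1 and 4. The counts were 1 and 3 when the slide row was blocked, and 20 and 0 in the scaling to spike-in controls after loess. Of 17 tested genes that regulate p53, 1 was called (5.88%, beside 32.8% of all genes). It was the deacetylase gene Sirt1, which was higher in MUT pools (0.49 ± 0.13 SE, adjusted p = 0.0236). No regulator was called by limma without MUT pool 2, WT pool 2 or WT pool 3, or when the slide row was blocked, while 3 were called higher without MUT pool 1 and 15 in each scaling to spike-in controls. Brca1, Cdkn2a and Chek1 were among the regulators that could not be tested.

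Cell cycle genes that p53 is known to lower through p21 and DREAM were mostly higher in MUT pools, as were Ckap2 and Psrc1. Of 24 tested, 18 rose, 0 fell and 6 were not called by limma, and their median difference was 0.48. The 75% called higher stands beside 14.0% of all genes called higher. At an unadjusted p under 0.05 the counts were 19 higher and 0 lower. Cenpe, a kinetochore motor (0.99 ± 0.11 SE, adjusted p = 0.000926), Ccna2, cyclin A2 (0.79 ± 0.11 SE, adjusted p = 0.00177), Top2a, topoisomerase II alpha (0.85 ± 0.12 SE, adjusted p = 0.00233), and Mki67, the proliferation marker Ki-67 (0.64 ± 0.10 SE, adjusted p = 0.00276), had the smallest p. The count of these genes called higher was 3 when the slide row was blocked, and between 10 and 18 when each pool was left out in turn. It was 24 in the scaling to spike-in controls after loess and 23 in the one without loess. Whether the lower Cdkn1a has a part in the higher level of these genes was not tested.

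Immediate early genes, which growth factors and cell handling also raise, lay on the same side as Cdkn1a, Gdf15 and Ddit4. Btg2 (-0.13) and Plk2 (-0.32), also to be read beside them, were not called. Of 12 immediate early genes tested, 0 rose, 10 fell and 2 were not called by limma, with a median difference of -0.80. The 83.3% called stands beside 32.8% of all genes. The counts at an unadjusted p under 0.05 were the same. Ier3 (-2.01 ± 0.16 SE, adjusted p = 0.00038), Atf3 (-1.46 ± 0.12 SE, adjusted p = 0.000403), Klf6 (-1.002 ± 0.10 SE, adjusted p = 0.000546) and Dusp1 (-0.87 ± 0.12 SE, adjusted p = 0.00217) had the smallest p. The number that fell was 6, 7 and 5 without WT pools 1, 2 and 3, and between 8 and 10 without a MUT pool. It was 3 with each array centred on its median, 4 when the slide row was blocked and 1 in each scaling to spike-in controls. In each of those scalings 1 immediate early gene was also called higher, and the median difference was 0.155 after loess and 0.117 without it. Of 10 genes of ATF4 and hypoxia, 3 fell, which were Bnip3 (-0.76), Trib3 (-0.53) and Sesn2, and 0 rose, also at an unadjusted p under 0.05. The 30% called is close to the 32.8% of all genes. With median centring 0 of these genes were called by limma, 1 was lower when the slide row was blocked, and 3 and 4 were higher and 0 lower in the scalings to spike-in controls. The part of such stress routes in the levels of Cdkn1a, Gdf15, Ddit4 and Sesn2 was not tested.

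**Figure D2:**
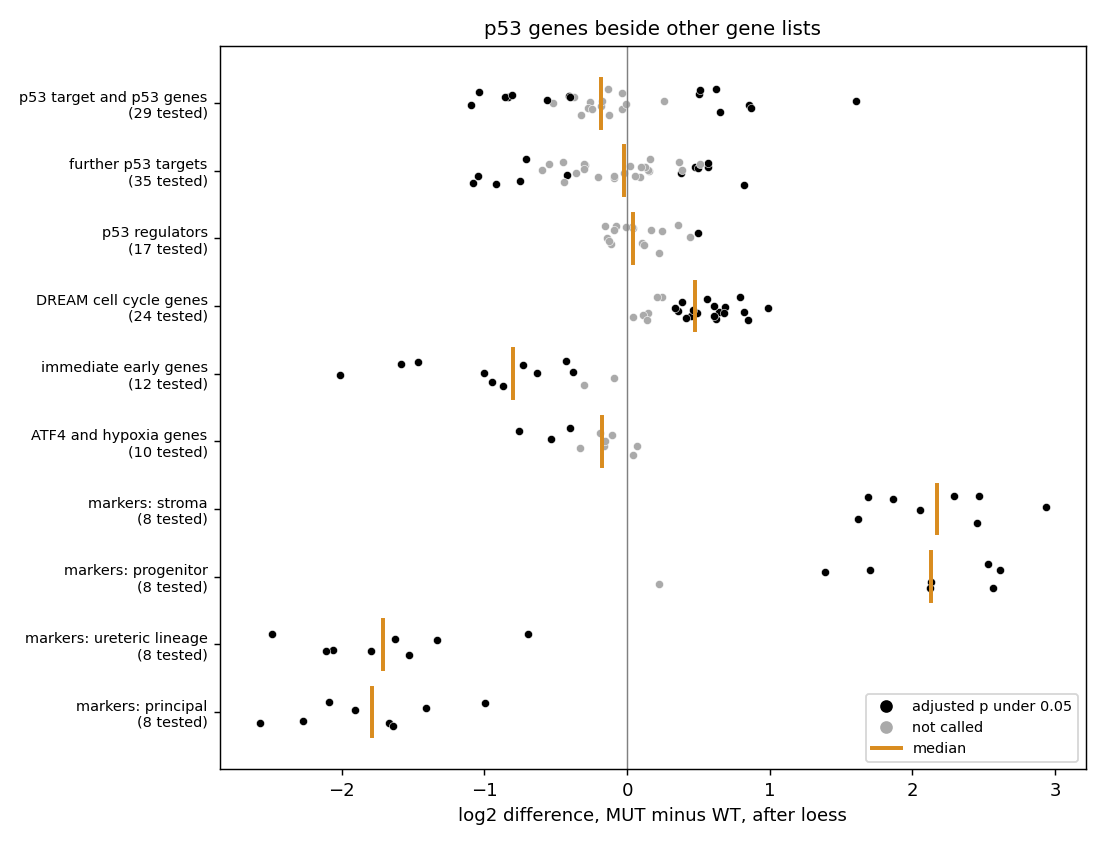
Log2 difference of MUT minus WT (horizontal axis) for each tested gene of the p53 genes and of other lists, with called genes in black, others in grey and the list median as an orange bar. The p53 genes and further targets spread to both sides of 0, the DREAM cell cycle genes lie to the right with a median of 0.48, and the immediate early genes lie to the left with a median of -0.80.

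The direction of many members is relative to the typical probe on the array. Each array was also scaled to its 10 spike-in controls. After loess, their mean log2 ratio was -0.777, -0.637 and -0.26 on the arrays of MUT pools 1 to 3. It was -0.069, 0.311 and 0.944 on those of WT pools 1 to 3. The controls thus differed widely among arrays of the same group, and rose in the order of the arrays on the slide. The cause of that rise was not tested. With this scaling, all tested probes moved up by a median of 0.95 after loess and 0.86 without it. In that scaling 98.9% and 98.4% of called probes were higher in MUT pools, against 44.2% in the loess fit and 77.2% with median centring, which drops the loess and moved the median of all probes by 0.23. After loess and the spike-in setting, 13 members were called higher and 0 lower, and 6 of the 8 members that fell had a positive difference, among them Cdkn1a with 0.12 and Pmaip1 with 0.10. Perp (-0.14) and Gdf15 (-0.09) were still negative and not called. This setting adds a constant to each array, so the order of the members and their differences from the typical probe are those of the loess fit. With each array centred on its median, Perp was the 1 member called lower (-0.82, adjusted p = 0.0224). The others that fell after loess were still negative there but not called, Cdkn1a with -0.58 (adjusted p = 0.0551) and Pmaip1 with -0.61 (0.0704). All 7 members that rose were called higher in both spike-in settings and with median centring.

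Row 1 of the slide held the MUT pools and WT pool 1, and row 2 held WT pools 2 and 3. Blocking on the row sets the MUT pools beside WT pool 1 alone, and then 2 members rose and 2 fell, out of 2194 probes called. These were Phlda3 (adjusted p = 0.0143), Psrc1 (0.0428), Cdkn1a (0.0281) and Perp (0.0407). Trp53 (0.183), Apaf1 (0.0903), Pmaip1 (0.0646) and the other called members were not called in that fit. The differences of Ddit4 (-0.50) and Gdf15 (-0.62) were also smaller by over 1.5 times. Within row 1 alone, Phlda3 was the 1 member called.

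**Figure D3:**
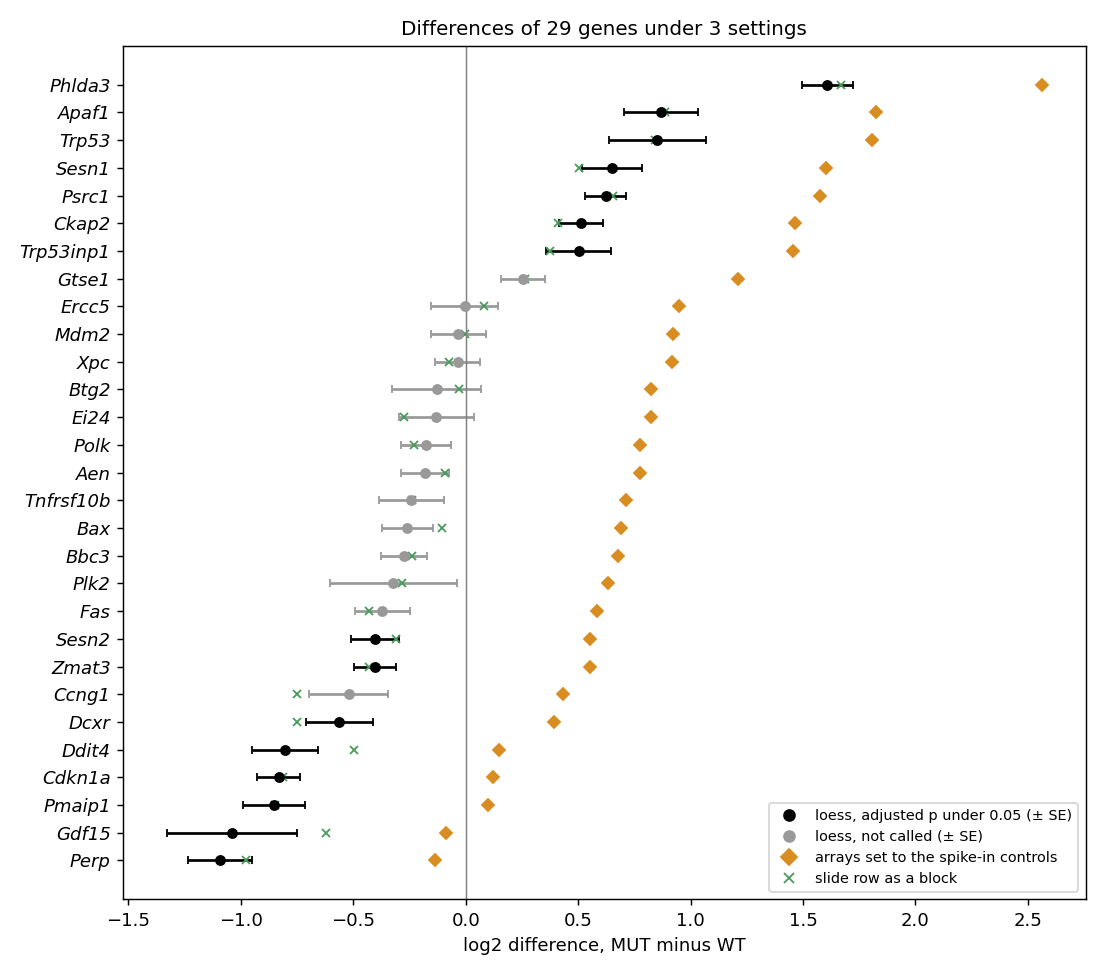
Log2 difference of MUT minus WT (horizontal axis) for the 29 tested genes, as circles with their SE after loess (black if called, grey if not), diamonds after scaling to the spike-in controls, and crosses with the slide row as a block. The diamonds lie to the right of every circle, with Phlda3 farthest right and Perp and Gdf15 the 2 genes left of 0.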

How the data were processed

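The submitters' processing notes name Agilent Feature Extraction 10.7.3.1. Its deposited output files hold spot intensity per channel (median signal and local background) and the log10 of Cy5 over Cy3. The authors' deposited values per probe are that log10 ratio, within 0.00499 of the scanner files, with a median of 0 on each array, and served as an alternative. Labelling used 0.5 µg of RNA, per the labels. All arrays were on 1 slide in 1 scan, and dyes were not swapped.

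Intensities were corrected by normexp (offset 50) and log2 ratios were normalized by loess within arrays, with control spots at weight 0. Outlier spots were dropped, and saturation occurred at 0 spots. A probe was tested if its Cy5 signal was well above background throughout a group, on 3 of 3 arrays (29003, 52.1%). MUT was compared with WT by lmFit and eBayes of limma 3.58.1 (R 4.3.3, with data.table, version 1.17.8), with Benjamini-Hochberg adjustment over these probes. Each gene takes the value of the brightest probe tested for it. Names came from RefSeq accessions matched to GRCm38.p6 (27509 of 55681 probes). The file headers name another assembly, so probes have no coordinates here. Figures used Python 3.11.15 and matplotlib 3.10.9.

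The members, lists and settings were chosen with earlier results of these data known. Every member is named, and of each other list the 4 called genes with the smallest adjusted p, plus any that a small count makes single. Median differences and signs describe lists, with no test over a list.

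On simulated data of 29003 probes, changes of 0.5, 1 and 2 on the log2 scale were called in 5.97%, 56.7% and 80.3% of probes. Their median estimates were 0.373, 0.783 and 1.58, so changes were understated in the simulation. Of its 99 calls 4 were false. Far fewer probes changed there than were called in the data, and noise was drawn independently for each array. These rates therefore need not hold for the data. Pool number as a block was an alternative only, because same-numbered pools' deviations from their group means were not all correlated over 0.1. Other alternatives covered background, scaling, filters, slide row, weights, probe averaging and leaving out each pool.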

Additional observations from a re-analysis of the deposited data

How the results depend on the processing

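The number of arrays, 3 pools per group, limits the precision of every value here. In the loess fit 7 members were called higher, 8 lower, the member median was -0.18 and 7584 probes were called. Leaving out each pool in turn gave 4 to 7 members higher, 4 to 11 lower, a member median between -0.236 and -0.157, and 3831 probes (without WT pool 3) to 9536 probes called. The scanner software's log ratio and the deposited value table each gave 5 members lower, without Gdf15, Dcxr and Sesn2. The member median was -0.205 with no background correction, -0.215 with an offset of 10, -0.234 for the Cy5 channel alone, -0.195 with array weights and -0.198 with a mean over a gene's probes. Median centring gave 1 member lower and a member median of 0.043.

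With the slide row as a block, 2 members were called higher, 2 lower, the member median was -0.231 and 2194 probes were called. Row 1 of the slide alone, an alternative chosen after seeing the data, gave 1 higher, 0 lower by limma, a member median of -0.231 and 1274 probes. That fit has 1 WT pool, which is assumed to vary like the MUT pools.

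In the settings scaled to the spike-in controls (with loess first, and with none), 13 and 14 members were called higher, 0 and 0 lower. The member median was 0.774 and 0.671, and 18923 and 16617 probes were called. All members that were negative after loess turned positive there, except Perp and Gdf15. Those of them called after loess, and those whose positive difference was called in at least 1 of the 2 settings, had 0.824 and 0.799 for Btg2, 0.122 and 0.051 for Cdkn1a, 0.824 and 0.795 for Ei24, 0.101 and 0.017 for Pmaip1, 0.551 and 0.511 for Zmat3, 0.392 and 0.345 for Dcxr, 0.15 and 0.135 for Ddit4, 0.551 and 0.522 for Sesn2, 0.921 and 0.923 for Mdm2, 0.949 and 0.896 for Ercc5, and 0.918 and 0.892 for Xpc. Aen had 0.774 (not called) and 0.8 (called), and Ccng1, Plk2, Bax, Bbc3, Fas, Tnfrsf10b and Polk had uncalled differences between 0.393 and 0.777. In these settings 13 uncalled members changed sign, as did 10 with median centring. The cause of these shifts was not tested.

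With pool number as a replicate block, 7 members were called higher and 8 lower, with Ccng1 (adjusted p = 0.0185) in place of Sesn2, and 7247 probes were called. The deviations of same-numbered pools correlated at 0.143, 0.072 and 0.197, each above the correlation with any other number, which is a hint from the data and not from the design.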
